A study of Sus scrofa with 6 samples.

Results

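PEG10 is described here from the promoter it shares with its neighbour SGCE to the end of its 3′ UTR. Its members are CpG sites. They were taken from the deposited tables as every site that the tables annotate to PEG10 outside intergenic sequence, or to the PEG10 promoter. The rule gave 360 CpGs (720 cytosines on the 2 strands) of 14116 CpGs in the tables, and all 360 had a read in at least 1 embryo. Of these, 70 came in through the promoter annotation, and 52 of the 70 lie inside SGCE. In all, 151 of the 360 CpGs also carry an SGCE gene or promoter annotation. The gene (RefSeq gene 654416) runs from position 74474121 to 74486983 of chromosome 9 in Sscrofa11.1, a length of 12863 bp on the plus strand. Distances below are counted from position 74474121, and negative distances lie upstream. The tables cover only an interval of chromosome 9 around PEG10, from position 7.325e+07 to 7.53499e+07. The 14116 CpGs, and all shares, levels and sets given below for comparison, come from this interval and are not genome-wide.

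The 6 libraries are whole-genome bisulfite libraries, 1 per embryo, from 3 controls and 3 parthenotes. Each is a whole pig embryo collected at embryonic day 21, of the cross of Landrace, Yorkshire and Duroc pigs that the labels call LYD. A parthenote develops from an electrically stimulated egg with no sperm, so both of its genomes are maternal. The parthenotes were carried by 2 surrogate gilts of that cross, and the controls are labelled untreated. Which embryos came from the same gilt is not given, so p-values measure the spread between these embryos, and litter and group cannot be told apart. Whole embryos average over all cell types, the tables hold no read phase that would assign a methylated read to a parental copy, and bisulfite does not separate methylated from hydroxymethylated cytosine.

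PEG10 arose from a retrotransposon of the Ty3/gypsy class and kept gag-like and pol-like reading frames, which lie mostly in the last exon in mammals. It is an imprinted gene: the paternal copy is transcribed and the maternal copy is silent, and in the mouse the gene is required for the placenta to form. The silencing mark known in mammals is methylation of the promoter region that PEG10 shares with SGCE, laid down in the egg and absent from sperm. SGCE encodes epsilon-sarcoglycan and is transcribed in the opposite direction, from a start 217 bp away.

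The 360 CpGs held 7075 to 8257 reads in an embryo, and the median CpG held 17 to 23.5. The whole tables held 380163 to 406443 reads per embryo. Control 1 had the lowest mean level over the tested CpGs outside PEG10, 75.2%, against 83.1 to 85.5% in the other 5 embryos. A level is the number of methylated reads over all reads that show C or T, summed over both strands and over the CpGs of a stretch. Intervals given for a level are Wilson intervals at 95%, which describe counting error alone. Neighbouring CpGs can share a read, so their counts are not independent molecules.

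Over all 360 CpGs PEG10 was more methylated in the parthenotes. The level was 67.9%, 76.6% and 73.9% in controls 1 to 3 and 88.3%, 88.4% and 92.1% in parthenotes 1 to 3. Every parthenote lay above every control. The means were 72.8% ± 4.46 (SD, n = 3) and 89.6% ± 2.16 (SD, n = 3), a difference of 16.8 percentage points. A 2-sided exact permutation test gave p = 0.1, and 3 embryos against 3 can give no smaller value. The difference was not even along the gene. Of the annotated stretches, the upstream, 5′ UTR and intronic sets were called, as given below, and the exonic, 3′ UTR and downstream sets were not. The called 500 bp bins lay from -500 to 1999 bp. With the 151 CpGs that also carry an SGCE annotation left out, the difference was 2.45 points (exact permutation p = 0.4), and the groups overlapped. Of the CpGs left, 146 are exonic and 32 lie in the 3′ UTR, sets that were not called, and 28 are intronic.

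**Figure D1:**
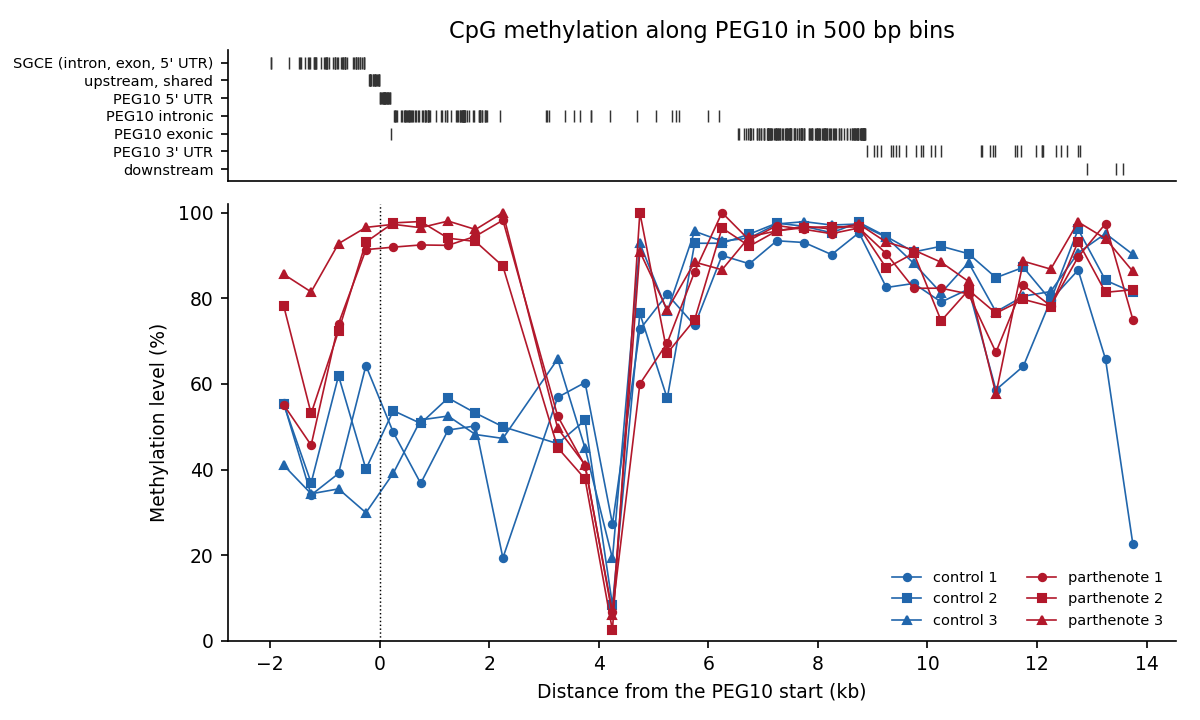
Methylation level (%) of each embryo in 500 bp bins against the distance from the PEG10 start in kb, with the position of every CpG by annotation in the upper panel. Controls (blue) lie between 29.9 and 64.3% from -500 to 1999 bp and parthenotes (red) at 91.4% or more, while the embryos intermingle from 6500 bp on. Bins with few CpGs are drawn but not tested, and the line across the stretch without CpGs from 2202 to 3041 bp holds no data.

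The tables divide PEG10 into upstream, 5′ UTR, intronic, exonic, 3′ UTR and downstream CpGs. Counts of methylated and unmethylated reads were compared with the quasi-likelihood test of edgeR over all 74 gene-by-annotation sets of the tables, and a Benjamini-Hochberg adjusted p under 0.05 was counted as a call. Of the 6 PEG10 sets 3 were called, all higher in parthenotes, against 5.41% of all sets. The only other set called was the 5′ UTR of SGCE, whose 6 CpGs lie in the PEG10 promoter annotation.

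The upstream stretch, between the starts of the 2 genes, holds 18 CpGs from -198 to -9 bp (74473923 to 74474113). Its level was 63.4%, 61.3% and 12.8% in controls 1 to 3 and 97.2%, 100% and 96.0% in parthenotes 1 to 3. Every parthenote lay above every control, and control 3 stood far below the other controls. The means were 45.8% ± 28.6 (SD, n = 3) and 97.7% ± 2.05 (SD, n = 3; edgeR log2 odds ratio 5.53, adjusted p = 0.0246). The stretch was shallow, with 62 to 107 reads per embryo, a median of 3 to 6.5 reads per CpG, and no CpG that reached 10 reads in every embryo. Of its 18 CpGs 16 carried a sign of a sequence variant, which includes a strand without a call in at least 1 embryo, and without them the stretch could not be tested. No CpG of the stretch held more than 9 reads in an embryo, while the sign by A bases needs 10 opposite-strand reads. The sign therefore need not mean a variant here. The intervals were 52.6 to 73.0%, 48.8 to 72.4% and 7.1 to 22.0% in controls 1 to 3, and that of control 3 did not reach the others. The same few reads can be counted at several CpGs of this stretch. The intervals can then be too narrow, and their separation does not set control 3 apart. The call was lost when any parthenote was left out (edgeR adjusted p = 0.065 to 0.149), and the difference was 35.4 points without control 3.

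The 5′ UTR has 20 CpGs from 2 to 193 bp (74474123 to 74474315). The level was 52.8%, 61.0% and 32.8% in controls 1 to 3 and 90.2%, 98.4% and 98.2% in parthenotes 1 to 3. The groups did not overlap, and control 3 was again the lowest embryo. The means were 48.9% ± 14.5 (SD, n = 3) and 95.6% ± 4.66 (SD, n = 3; 219 to 311 reads per embryo, edgeR log2 odds ratio 4.60, adjusted p = 0.00576). The 5′ UTR of SGCE, 6 CpGs on the other side of the shared stretch, had another order of the controls. Its level there was 60.5%, 25.0% and 38.6% in controls 1 to 3 and 90.1%, 79.3% and 96.7% in parthenotes 1 to 3, at 43 to 91 reads per embryo. The 2 CpGs in an SGCE exon at -391 and -389 bp spread the controls most. Control 1 was at 90% there, against 17.4% and 21.9% in controls 2 and 3, at 20 to 38 reads per embryo, while the parthenotes were at 85.7 to 96.2%. Low depth and wide spread of the controls went together around the starts, and the part of depth in that spread was not tested.

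The intronic set has 88 CpGs from 266 to 6190 bp (74474387 to 74480312). The level was 46.3%, 51.2% and 52.6% in controls 1 to 3 and 85.0%, 85.5% and 88.7% in parthenotes 1 to 3. The embryos of each group lay close together and the groups far apart. The means were 50.0% ± 3.34 (SD, n = 3) and 86.4% ± 2.00 (SD, n = 3; 1866 to 2305 reads per embryo, edgeR log2 odds ratio 2.68, adjusted p = 0.000113). The set joins 2 unlike parts, which a gap of 839 bp without a CpG separates. The 72 CpGs up to 2202 bp were at 42.0%, 51.4% and 50.1% in controls 1 to 3 and 93.3%, 96.2% and 96.8% in parthenotes 1 to 3. The 16 CpGs from 3041 bp on were at 61.9%, 50.1% and 64.2% in controls and 55.2%, 48.6% and 54.6% in parthenotes, so the groups overlapped. This division of the introns was made after the values were seen and is given without a test. An SGCE annotation is also carried by 60 of the 88 CpGs. Over the other 28 the intronic difference was 11.8 points and was not called (edgeR adjusted p = 0.831). Only 16 intronic CpGs lie beyond the gap, so some of the 28 lie before it. The difference was 47.6 points over the 72 CpGs before the gap and -5.91 over the 16 beyond it. The 11.8 points thus do not show that the difference ended with the SGCE annotation. All 18 upstream and all 20 5′ UTR CpGs carry an SGCE annotation, so these sets have no value without it.

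The exonic set is the most methylated of PEG10 in the controls. It has 147 CpGs, 1 near the start and 146 from 6547 to 8864 bp. The 1 CpG at 206 bp (16 to 22 reads) was at 43.8%, 43.8% and 42.9% in controls 1 to 3 and 86.4%, 93.8% and 100% in parthenotes 1 to 3, and behaved like the 5′ UTR and intronic sites around it. It was not called on its own (edgeR adjusted p = 0.0667). The 146 later CpGs, in the part of the gene where the retrotransposon-derived reading frames lie in mammals, were at 92.8%, 96.9% and 97.1% in controls 1 to 3 and 96.1%, 96.1% and 96.4% in parthenotes 1 to 3. The group means of the whole exonic set were 95.3% ± 2.40 (SD, n = 3) and 96.2% ± 0.22 (SD, n = 3; 2617 to 3625 reads per embryo, edgeR adjusted p = 0.907). Control 1 was the lowest embryo there, as it was over the tested CpGs outside PEG10, and without it the difference of 0.84 points became -0.55.

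The 3′ UTR, 32 CpGs from 8892 to 12777 bp, had a lower level than the exonic set in 6 of 6 embryos, and its group difference of 0.38 points was smaller than the spread of the embryos. The level was 77.1%, 89.2% and 85.9% in controls 1 to 3 and 83.1%, 83.01% and 87.4% in parthenotes 1 to 3. The means were 84.1% ± 6.26 (SD, n = 3) and 84.5% ± 2.51 (SD, n = 3; 905 to 1118 reads per embryo, edgeR adjusted p = 0.98). The 3 downstream CpGs (12912 to 13571 bp) were at 45.7%, 83.1% and 92.8% in controls and 81.2 to 90% in parthenotes (74 to 96 reads, edgeR adjusted p = 0.815). In the order of control means, the exonic set came first, then the 3′ UTR, the downstream CpGs, the introns, the 5′ UTR and the upstream stretch. The ranges of the last 3 over the control embryos overlapped. In parthenotes the upstream, exonic and 5′ UTR sets lay at 95.6 to 97.7%, above the introns, the downstream CpGs and the 3′ UTR at 84.5 to 86.4%.

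**Figure D2:**
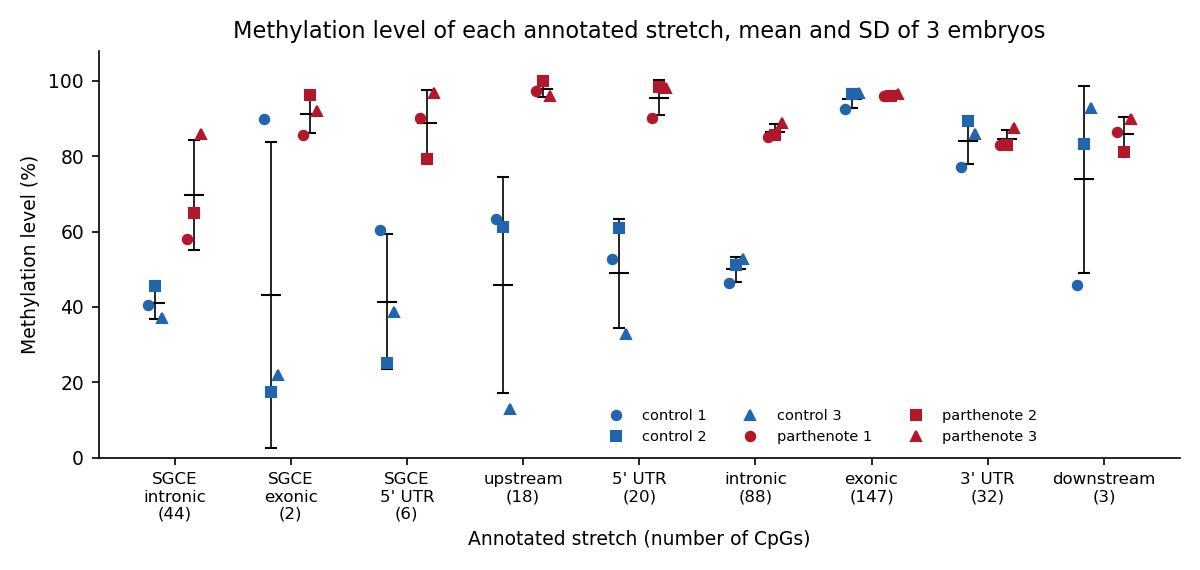
Methylation level (%) of each annotated stretch, with 1 symbol per embryo and black bars for the mean and SD of 3 embryos. Controls and parthenotes are apart in the upstream, 5′ UTR and intronic sets of PEG10 and overlap in the exonic, 3′ UTR and downstream sets, and the controls spread from 12.8 to 63.4% in the upstream stretch.

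Whether the group difference itself changed along the gene was examined as the intronic level minus the 3′ UTR level within each embryo, which removes an embryo's general level. It was -30.9, -38.1 and -33.3 points in controls 1 to 3 and 1.95, 2.50 and 1.33 points in parthenotes 1 to 3. In every control the introns lay far below the 3′ UTR, and in every parthenote they lay slightly above it. The means of -34.1 ± 3.66 (SD, n = 3) and 1.93 ± 0.59 (SD, n = 3) differed by 36.0 points, with an exact permutation p of 0.1, the smallest possible.

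The position of the difference was followed in bins of 500 bp, counted from the PEG10 start and laid over the whole interval of the tables. CpGs of PEG10 fell in 31 bins, of which 8 had fewer than 3 CpGs or 30 reads in an embryo and were not tested. Of the 23 tested bins 5 were called by edgeR, all higher in parthenotes, against 0.32% of all 1876 bins. They adjoin each other and run from -500 to 1999 bp. Outside PEG10, 1 of 1853 tested bins was called. No PEG10 bin was called lower: edgeR called 0 and found 0 lower at an unadjusted p under 0.05, and limma called 0.

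The bin from -500 to -1 bp was at 64.3%, 40.1% and 29.9% in controls 1 to 3 and 91.4%, 93.1% and 96.6% in parthenotes 1 to 3 (31 CpGs, 19 with the variant sign, edgeR adjusted p = 9.6e-06). The bin from 0 to 499 bp was at 48.7%, 53.8% and 39.1% in controls and 92.0%, 97.6% and 97.3% in parthenotes (32 CpGs, edgeR adjusted p = 3.93e-07). From 500 to 999 bp the levels were 36.8%, 50.8% and 51.6% in controls and 92.5%, 97.9% and 96.5% in parthenotes (22 CpGs, edgeR adjusted p = 3.93e-07). In each of these 3 bins the parthenotes lay within a few points of each other, while the lowest control was control 3 in the first 2 of these bins and control 1 in the next. From 1000 to 1499 bp the controls were at 49.2%, 56.7% and 52.5% and the parthenotes at 92.4%, 94.0% and 98.0% (13 CpGs, edgeR adjusted p = 6.94e-06). From 1500 to 1999 bp they were at 50.2%, 53.2% and 48.2% and at 94.5%, 93.3% and 96.1% (25 CpGs, edgeR adjusted p = 3.13e-06). The difference of the 5 bins was 42.0 to 49.2 points, and the SD of the controls was 17.7 in the bin before the start and 2.52 in the last of them. Median depth in these 2 bins was alike and low, at 5 to 8 and 5 to 13 reads per CpG.

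Upstream of -500 bp the parthenotes came apart from each other. The bin from -1000 to -501 bp was at 39.1%, 61.9% and 35.5% in controls 1 to 3 and 74.1%, 72.3% and 92.8% in parthenotes 1 to 3 (21 CpGs, 126 to 261 reads). Every parthenote was above every control, but the bin was not called (edgeR adjusted p = 0.13). It was called without control 2 (0.000675) and without parthenote 1 (0.0449; edgeR adjusted p). It was also called without CpGs that showed a sign of a sequence variant (0.0439) and with the replicate number as a block (0.0048; edgeR adjusted p). It was not called without control 1 (0.998), control 3 (0.789), parthenote 2 (0.0823) or parthenote 3 (0.999; edgeR adjusted p). Nor was it called by limma (limma adjusted p = 0.328), on single strands or with the expected counts of the authors. The bin from -1500 to -1001 bp also had every parthenote above every control without a call, at 34.1%, 36.9% and 34.3% in controls and 45.7%, 53.1% and 81.5% in parthenotes (15 CpGs, edgeR adjusted p = 0.998). In the outermost bin, from -2000 to -1501 bp, the groups overlapped, at 55.5%, 55.3% and 41% in controls and 55.1%, 78.2% and 85.6% in parthenotes (3 CpGs, edgeR adjusted p = 0.998). Single runs of CpGs within these bins were unlike each other. The 6 CpGs from -1652 to -1310 bp were at 28.3%, 34.97% and 30.2% in controls and 58.8%, 67.2% and 83.8% in parthenotes. The next 8 CpGs toward the gene, from -1285 to -1155 bp, were at 41.1%, 39.9% and 40.6% in controls 1 to 3 and 34.7%, 43.4% and 81.8% in parthenotes 1 to 3 (133 to 275 reads). Parthenotes 1 and 2 were at the level of the controls there, and parthenote 3 was about as methylated as at the CpGs beyond. These 14 CpGs were singled out after their values were seen. The 2 runs had differences of 38.7 and 12.8 points, the smaller nearer the gene. By bin the difference rose toward the start, from 22.4 and 25.0 to 34.2 and 48.9 points. Runs picked in this way do not show how the difference changes along the promoter annotation. Parthenote 3 was the highest embryo in each of the 4 upstream bins.

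Downstream, the last CpG before the gap marks the far end of the measured difference. At 2202 bp it was at 19.4%, 50.0% and 47.3% in controls 1 to 3 and 98.2%, 87.5% and 100% in parthenotes 1 to 3 (31 to 62 reads, edgeR adjusted p = 0.00118). Its difference of 56.4 points was the largest among the called CpGs of PEG10. The first CpG beyond the gap, at 3041 bp, was at 68.6%, 45.7% and 80.5% in controls and 60%, 55.6% and 64.3% in parthenotes (28 to 41 reads, edgeR adjusted p = 1). The difference therefore ended somewhere in these 839 bp, where the tables list no CpG.

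From 3000 to 3999 bp, beyond the gap, the introns were at middle levels in both groups. The bin from 3000 to 3499 bp was at 56.9%, 46.1% and 65.8% in controls 1 to 3 and 52.5%, 45.1% and 49.6% in parthenotes 1 to 3. The bin from 3500 to 3999 bp was at 60.3%, 51.5% and 45% in controls and 40.9%, 37.8% and 41.1% in parthenotes. In that bin every parthenote lay below every control, by 12.3 points in the mean, but the test did not call it (edgeR adjusted p = 0.998). The parthenote mean was below the control mean at 10 of the 14 tested intronic CpGs beyond the gap, none of them called, and neighbouring CpGs can share reads. These were all 9 from 3041 to 4203 bp, a window chosen after the values were seen, and 1 of the 5 from 4707 to 6190 bp. The middle level here was made of unlike CpGs. Control means ran from 9.1 to 84.4% over the 9 CpGs and parthenote means from 5.06 to 75.8%. The CpG at 3657 bp was low in both groups, with means of 9.1% ± 7.97 and 5.33% ± 6.11 (SD, n = 3), and the next tested CpG, at 3859 bp, was high in both, with 84.4% ± 12.7 and 75.8% ± 8.24 (SD, n = 3). The CpG at 4203 bp was at 27.3%, 8.33% and 19.2% in controls and 6.67%, 2.44% and 6.06% in parthenotes (26 to 41 reads), below every control in each parthenote and not called. The 5 tested CpGs after it were high in both groups, with control means of 78.8 to 92.1%, parthenote means of 80.6 to 94.4% and differences of -4.18 to 2.95 points. The bin from 5000 to 5499 bp, the only one tested there, was at 71.5% ± 13.1 and 71.3% ± 5.27 (SD, n = 3; edgeR adjusted p = 0.998).

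In the 5 called bins the middle level of the controls was shared by most CpGs. Of their 123 CpGs 62 had 10 reads in every embryo. Of these 62, 45, 54 and 57 lay from 35 to 65% in controls 1 to 3, and 0 did so in any parthenote. At 90% or more there were 39, 56 and 60 CpGs in parthenotes 1 to 3, and 2, 0 and 0 in controls 1 to 3. Every parthenote was above every control at 60 of the 62, against 746 of the 12359 CpGs tested in all. The bins were called on the group difference in these same reads. The counts given here therefore describe the bins and are no further evidence of a difference. The median CpG was at 43.3%, 52.5% and 47.3% in controls and 92.2%, 98.8% and 96.9% in parthenotes. Pooled over these bins the 2 strands gave like levels. They were 49.8% ± 3.78 on the upper and 45.8% ± 2.80 on the lower strand in controls and 95.6% ± 2.07 and 94.8% ± 2.82 in parthenotes (SD, n = 3). In single bins the strands were less alike. From the first bin to the last, the group difference was 56.6, 44.8, 44.5, 40.8 and 53.4 points on the upper strand. On the lower strand it was 42.5, 51.5, 55.4, 43.6 and 35.8 points.

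**Figure D3:**
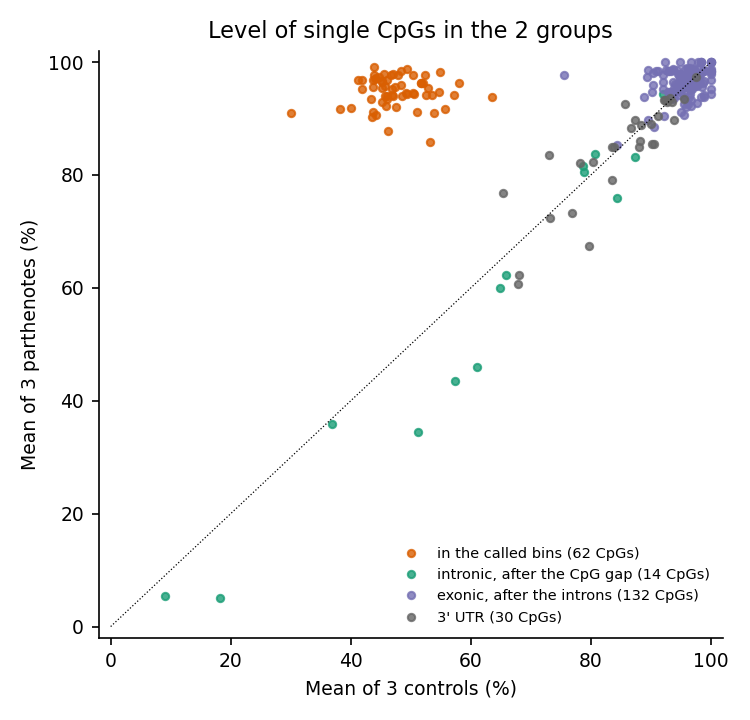
Mean level (%) of 3 parthenotes against that of 3 controls for single CpGs with at least 10 reads in every embryo, coloured by stretch, with a dotted line where both are equal. The 62 CpGs of the called bins form a cloud at middle control and high parthenote levels, the 14 intronic CpGs beyond the gap run along the line from low to high levels, and the 132 late exonic CpGs sit in the upper corner, apart from 1 with a control mean of 75.6%.

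Single CpGs were tested where every embryo had at least 10 reads, which 257 of the 360 CpGs did. Of the 257, edgeR called 38, all higher in parthenotes, against 0.429% of the 12359 CpGs tested in the tables, a share that includes the 38. Outside PEG10, 15 of 12102 tested CpGs were called higher. All 38 called CpGs of PEG10 were intronic and lay from 266 to 2202 bp. None was called lower: edgeR called 0, with 2 lower at an unadjusted p under 0.05, and limma called 0 lower and 49 higher. The count changed with the embryo left out. It was 38, 35 and 25 without controls 1 to 3 in turn, and 35, 15 and 17 without parthenotes 1 to 3. The 10 called CpGs with the largest differences lay at 392, 416, 466, 502, 671, 718, 779, 827, 1931 and 2202 bp, with differences of 52.8 to 56.4 points. Beside the CpG at 2202 bp, the CpG at 827 bp was at 32.4%, 39.4% and 51.9% in controls 1 to 3 and 96.6%, 97.2% and 96.8% in parthenotes 1 to 3 (29 to 54 reads, edgeR adjusted p = 0.00118). The CpG at 502 bp was at 33.3%, 48.5% and 50.0% in controls and 100%, 97.3% and 100% in parthenotes (26 to 37 reads, edgeR adjusted p = 0.000934).

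The tested CpGs near the start that edgeR did not call had higher parthenote means too. All 8 tested CpGs of the 5′ UTR had every parthenote above every control, with a median difference of 44.4 points, and 0 were called. Of the 18 tested CpGs in the SGCE intron all 18 had the higher mean in parthenotes, at a median of 16.6 points, and 9 had groups that did not overlap. Of the 63 tested intronic CpGs of PEG10 the groups were apart and the parthenotes higher at 49, against 5 of 133 exonic and 1 of 30 in the 3′ UTR. Among the 12359 CpGs tested in all, 8151 had the higher mean in parthenotes, 746 were apart in that direction and 182 in the other. Neighbouring CpGs can share reads, so these counts are not of independent sites.

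**Figure D4:**
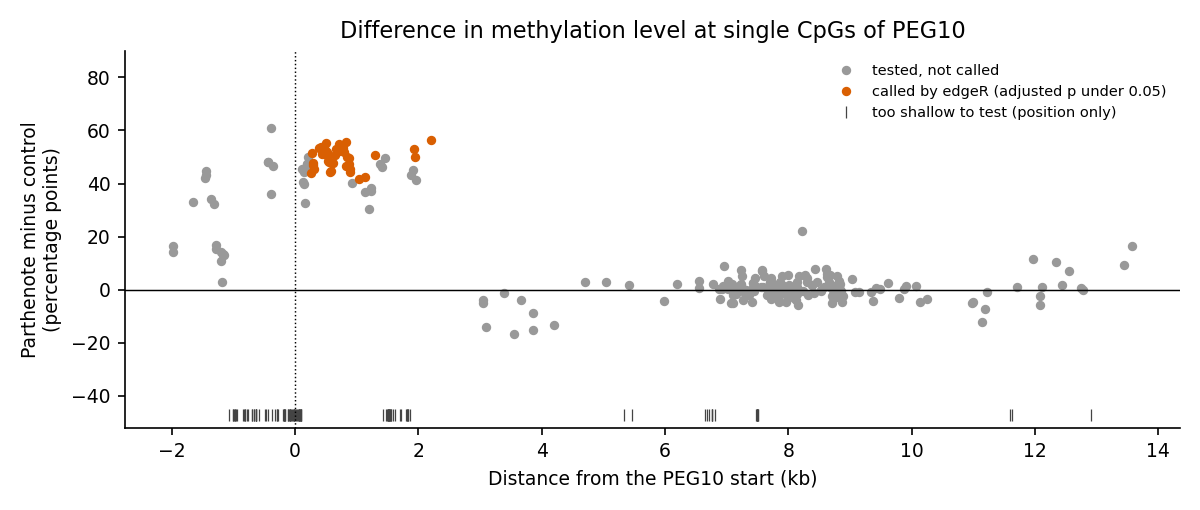
Parthenote minus control mean in percentage points at each tested CpG of PEG10 against the distance from its start in kb. The 38 called CpGs (orange) lie between 266 and 2202 bp, the 8 tested 5′ UTR CpGs stand as high without a call, and ticks at the bottom mark the CpGs with too few reads, which crowd the stretch before the start and around 1500 bp.

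The late exonic part was nearly uniform. Of its 132 tested CpGs 92, 121 and 129 were at 90% or more in controls 1 to 3 and 125, 121 and 124 in parthenotes 1 to 3. The bins from 7000 to 8999 bp had control means of 94.2 to 96.8% and parthenote means of 96.0 to 96.8%. The CpG at 8839 bp had the smallest difference of all tested CpGs and read 100% in all 6 embryos (16 to 27 reads). One exonic CpG stood out, singled out after its values were seen: at 8218 bp control 1 was at 38.9%, against 90.9% and 97.0% in controls 2 and 3 and 96.4 to 100% in parthenotes (18 to 33 reads, edgeR adjusted p = 1). Along the 3′ UTR both groups had their lowest bin mean near the middle. It was 90.4% ± 6.82 in controls and 90.2% ± 3.03 in parthenotes from 9000 to 9499 bp, 73.4% ± 13.4 and 67.2% ± 9.46 from 11000 to 11499 bp, and 91.1% ± 4.77 and 93.6% ± 4.10 from 12500 to 12999 bp (SD, n = 3), the last with 1 downstream CpG.

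Over the 15 tested bins beyond the gap the parthenote mean was higher in 9, with differences of -12.3 to 6.55 points and a median of 0.05. The median over the 1853 tested bins outside PEG10 was 2.69 points. Control 1 was the lowest embryo in 11 of the 22 bins beyond the gap. The outermost tested CpGs of PEG10 were at -1981 bp, with 66.7%, 64.7% and 36.4% in controls and 50%, 79.5% and 81.4% in parthenotes, and at 13571 bp, with 22.5%, 81.4% and 90.2% in controls and 75%, 82% and 86.3% in parthenotes. Neither was called (edgeR adjusted p = 1), and the latter carried a sign of a sequence variant.

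CpGs were dense where the difference lay and also where it did not. The 5 called bins listed 31, 32, 22, 13 and 25 CpGs, and the uncalled bins from -1500 and -1000 bp listed 15 and 21. From 6500 to 8999 bp the bins listed 16, 41, 30, 26 and 34. The median over all bins of the interval that hold a CpG was 3. Between them, from 2000 to 6499 bp, no bin held more than 4. Control means were 35.1 to 52.8% over the dense bins from -1500 to 1999 bp and 92.4 to 96.8% over those from 6500 to 8999 bp.

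Among the gene-by-annotation sets of the tables that share no CpG with PEG10, the 3 nearest in level had groups that overlapped. Likeness was measured as the mean absolute difference in level from the PEG10 intronic set over the 6 embryos. It ranks sets by level and not by group difference. Some sets farther off had groups that did not overlap, though none of those was called. The nearest set was the 3′ UTR of PDK4, at 14.2 points, followed by the upstream set of PPP1R9A at 15.2 and the downstream set of CALCR at 15.5. Their control and parthenote means were 73.0% and 80.9% (PDK4), 61.7% and 67.8% (PPP1R9A) and 77.5% and 86.5% (CALCR), the groups overlapped in each, and none was called (edgeR adjusted p = 0.815). The 5′ UTR of SGCE, which shares its CpGs with the PEG10 promoter, was at 12.3 points.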

How the data were processed

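The members and stretches were chosen with earlier results of these data known. Per the submitters' processing notes, BSMAP 2.87 and the build Sscrofa11.1 were used; trimming, duplicate removal and mapping settings are not given in the sources used here. The authors deposited, per the file headers, raw counts of reads with C and with C or T at each CpG cytosine and of opposite-strand reads with G and with G or A. They also deposited an expected count, the C-or-T count times the share of G among opposite-strand reads, and a methylation fraction with its confidence bounds, the C count over that expected count. Contexts other than CG were not listed, so the share of unconverted cytosines is unknown.

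Raw counts were used here, with strands summed. Sets of CpGs by gene and annotation, and 500 bp bins, had to hold 3 CpGs and, in each embryo, 30 reads to be tested; a single CpG needed 10 reads in each. In R 4.3.3, edgeR 4.0.16 fitted its quasi-likelihood model to methylated and unmethylated counts with a coverage term per embryo and a group term, and Benjamini-Hochberg adjustment ran over all sets, bins or CpGs of the tables. Single values per embryo were compared with 2-sided exact permutation tests. Named were every annotated stretch and tested bin, the 10 called CpGs with the largest difference and the CpG with the smallest difference. The first and last tested CpG and the 3 sets of other genes nearest in level were named too. Further items, such as the CpGs at 206 and 3041 bp, were chosen with the values known. Not all of them are marked so where they are given. Alternatives were leaving out each embryo, a replicate block, limma 3.58.1, single strands, other limits and bin sizes, the expected counts of the authors (rounded), CpGs without an SGCE annotation, and CpGs without a sign of a sequence variant. That sign was 20% or more A among 10 or more opposite-strand reads, or a strand without a call, in any embryo. The tests were checked on simulated counts with changes of 45 points. There edgeR recovered 7 of 7 changed sets, 187 of 187 bins (with 4 false calls) and 193 of 200 CpGs (with 6). Simulated embryos of a group differed by counting error and a set spread alone (beta-binomial rho 0.02), with no shift of a whole embryo. In the data the controls had an SD of 28.6 points upstream, and control 1 was low outside PEG10. The recovery does not show how the tests perform at such spreads. No sequence is shown, since no reference sequence was used here. Python 3.11.15 with scipy 1.17.1, numpy 2.4.6, pandas 2.3.3 and matplotlib 3.10.9 did the rest.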

Additional observations from a re-analysis of the deposited data

How the results depend on the processing

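Among 596 values recomputed under another setting, 539 had the same sign and call (counts: within 1.5 times), and 37 changed sign. The 5 called bins stayed called, at 5 to 6, in every alternative with 500 bp bins; 250 bp bins gave 10 calls and 1000 bp bins 3. With CpGs that carry an SGCE annotation left out, 0 annotated stretches were called. No upstream or 5′ UTR CpG was left to test. The intronic difference was 11.8 points over 28 of 88 CpGs, of which only some lie before the gap. Upstream also could not be tested without variant-sign CpGs, with CpGs of 10 reads only, or on the lower strand. With each embryo left out, the upstream difference was 35.4 to 60.7 points, the called CpGs were 15 to 38, the exonic difference was -0.55 to 1.57, the 3′ UTR difference -3.1 to 2.95 and the downstream difference -2.04 to 21.5. The 3′ UTR difference was -0.069 with CpGs of 10 reads in every embryo and -0.74 on the lower strand. The upper minus lower strand level over PEG10 differed between groups by 3.93 points (exact permutation p = 0.2) and by -0.21 as an unweighted mean.

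Uncalled bins changed sign when embryos were left out: -7.6 to 4.58 (bin from 5000 bp), -1.17 to 2.3 (6500), -1.29 to 0.77 (7000), -0.88 to 1.55 (7500), -0.21 to 3.25 (8000), -0.74 to 0.46 (8500), -4.15 to 1.8 (9000), -1.44 to 3.42 (9500), -5.63 to 1.65 (10000), -0.028 to 11.5 (11500) and -2.09 to 2.28 (12000), and -4.73 to 29.1 at the CpG at 13571 bp. Other sign changes were 0.58 without variant-sign CpGs (5000), -0.096 with the expected counts of the authors (8500), -1.21 (7500), -1.08 (8500), 0.81 (9000) and -3.34 (9500) on the upper strand, and -2.54 (6500) and -0.78 (7000) on the lower.

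Same-numbered embryos of the 2 groups had correlations of their deviations of 0.088, 0.072 and -0.089 over 12359 CpGs. Differently numbered embryos had correlations from -0.24 to 0.21. These values do not show whether embryos with the same replicate number share a batch or a litter. With the replicate block 3 stretches, 6 bins and 42 CpGs of PEG10 were called.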
